A study of Homo sapiens with 18 samples.

Results

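The difference in splicing between SHEP.tet21n cells with MYCN switched on and the same cells with MYCN switched off was measured across all 18 RNA-seq libraries of the series. The comparison set the 9 libraries of vehicle-treated cells (MYCN+) against the 9 libraries of doxycycline-treated cells (MYCN-). SHEP.tet21n is a human neuroblastoma line that carries a human MYCN cDNA under a tetracycline-controlled promoter, so that doxycycline (Dox, 2 µg/mL, renewed every 72 h) represses the transgene while the vehicle (DMSO) leaves it on. All cells were also transfected with siRNA, and each siRNA arm held 3 MYCN+ and 3 MYCN- libraries. The arms were a non-targeting control (siControl, SNRPD3+) and 2 different siRNAs against SNRPD3 (siSNRPD3 1 and siSNRPD3 2, SNRPD3-), which encodes one of the Sm proteins of the spliceosome. The siRNA was a block in the test of all 18 libraries, and a difference given without an arm is the average over the 3 arms, which need not be alike. Every MYCN- library had received Dox and no MYCN+ library had, so an effect of Dox itself and the effect of MYCN repression cannot be told apart.

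MYCN is a transcription factor of the MYC family that binds E-box sequences together with MAX, and its amplification marks aggressive neuroblastoma. MYC proteins raise the output of many genes, among them genes for spliceosome components, and the spliceosome in turn removes introns by joining a donor site at the start of an intron to an acceptor site at its end. Where a donor or acceptor has more than one possible partner, one gene yields several mRNAs, for example with or without a cassette exon, which is an internal exon that can be left out.

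The measurement was the percent spliced in (PSI) of an intron, the share of spliced reads in a cluster of introns with common splice sites that used that intron. PSI values of one cluster add up to 100%, so a higher value for one intron is matched by lower values for its neighbours, and PSI measures neither the amount of mRNA nor intron retention. Of 233650 introns, 152722 had a mean PSI of 0.01 to 0.99 as a fraction and were tested, in 44442 clusters and 14299 genes. No intron placed in MYCN was among the values analysed here, so the switch itself could not be checked from PSI. The read counts behind the PSI values were not among the values used here and the depth of each library is therefore unknown.

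A pair of library properties preceded the results. In a principal component analysis of the 126351 tested introns with 18 different values, the first component held 9.19% of the variance and placed 8 of 9 MYCN+ libraries above 0 and 8 of 9 MYCN- libraries below 0. The 2 exceptions were replicate 3 of the MYCN-, siSNRPD3 1 group and replicate 3 of the MYCN+, siControl group, and results are given without each of them below. Exactly repeated PSI values within an intron, which occurred in 26371 tested introns, were more frequent in MYCN+ libraries (8993 to 11837 introns per library, median 10611) than in MYCN- libraries (7238 to 9465, median 8652; two-sided exact permutation test within arms, p = 0.00125). Among the 2206 introns called below, 90 held such a value, and a fit of only the introns with 18 different values called 2697 introns, 100 cassette exons less included with MYCN and 22 more included. Adding the number of repeated values per library as a covariate, an alternative chosen after seeing the data, lowered the count of called introns from 2206 to 316. Because the number of repeated values itself differed with MYCN state, this fit could only partly separate the covariate from MYCN. An intron not called with the covariate is therefore not shown to be without a MYCN difference. The calls left with this covariate are given below for cassette exons, for introns named by size and for the gene lists.

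With MYCN, 2206 introns in 1431 genes changed their use (limma on log2 odds of PSI, Benjamini-Hochberg adjusted p under 0.05). These were 1.44% of the introns tested and 10.0% of the genes tested. Use was higher in MYCN+ cells for 1244 introns (0.815% of those tested) and lower for 962 (0.630%). Most changes were small, with a median absolute difference of 4.0 percentage points among the called introns against 1.21 points among all tested introns, and 404 called introns differed by 10 points or more. Without the MYCN- library that lay on the MYCN+ side 2093 introns were called, and without the MYCN+ library that lay on the MYCN- side 1981.

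The changes included cassette exons that were less included in MYCN+ cells, with short exons more frequent among those called than among those tested. Of 11300 annotated cassette exons whose skipping intron and both flanking introns were tested, 72 were called less included with MYCN (0.637%), meaning that the skipping intron rose and at least one flanking intron fell, and 17 were called more included (0.150%). The 9 MYCN+ libraries lay wholly below the 9 MYCN- libraries for 31 of the 72 exons, and wholly above for 9 of the 17. Over all 11300 exons the corresponding shares were 0.805% and 0.177%. The median difference in inclusion was 11.6 points among the exons called less included and 3.78 points among those called more included. Under the covariate for repeated values, 9 exons were called less included (AFDN, CA12, FAT1, KIF21A, KIF23, PSAP, RPS24, SNX14 and TERF1) and 1 more included (OPA1). Without the MYCN- library that lay on the MYCN+ side the counts were 67 and 16, and without the MYCN+ library on the other side 61 and 14.

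**Figure D1:**
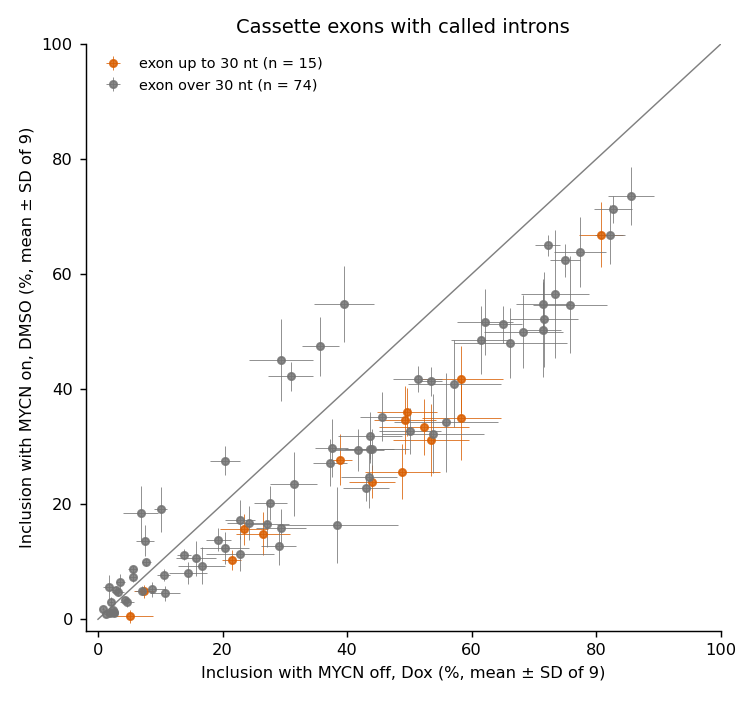
Inclusion of the 89 cassette exons with called introns in MYCN+ cells (vertical axis, %) against MYCN- cells (horizontal axis, %), each point an exon with bars of 1 SD over 9 libraries, and the line marking equal inclusion. Points below the line, 72 of them, were less included with MYCN, and all 15 exons of up to 30 nt are below it.

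The exons called less included with MYCN tended to be shorter than the exons tested and mostly had a length that was a multiple of 3. Their median length was 71 nt against 111 nt for all cassette exons tested. Among them, 56 of 72 (77.8%) had a length that was a multiple of 3 against 45.1% of all cassette exons, and 15 of 72 (20.8%) were no longer than 30 nt against 2.72%. Among all tested exons with a mean inclusion of 20 to 80%, where a change in PSI is more easily seen, the shares were 46.3% and 3.13%. Wholly coding exons were also more frequent among the 72 (77.8%) than among all cassette exons (55.8%) or those with a mean inclusion of 20 to 80% (47.1%). A multiple of 3 keeps a reading frame only in coding exons, and these were not compared alone. Exons of at most 30 nt are known as microexons, and in neurons many of them add a few amino acids to proteins of the synapse, the cytoskeleton and vesicle traffic. Called exons were 4.89% of the 307 tested exons of up to 30 nt, 1.38% of the 1380 exons of 31 to 60 nt, 0.488% of the 4713 exons of 61 to 120 nt and 0.306% of the 4900 longer ones, in each case counting those less included. By the median over all tested exons, short exons did not move further than the rest. The median difference between MYCN+ and MYCN- was -0.87 points for exons of up to 30 nt and -0.89 points for all 11300 exons. Inclusion was lower with MYCN in all 3 arms for 35.8% of exons of up to 30 nt and 33.5% of all exons. It was higher in all 3 arms for 17.6 and 13.7%. At a mean inclusion of 20 to 80%, the median difference was -2.43 points for 118 exons of up to 30 nt and -2.22 points for all 3765. Of these, 40.7 and 33.3% were lower in all 3 arms, and 16.9 and 14.7% were higher. Whether short exons differed from the others was not tested. No exon of up to 60 nt was called more included.

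Sequences of 8 of the 15 short exons are shown because they display how little sequence was left out. Capitals mark the exon, and the lower-case letters are the adjoining intron, all read 5′ to 3′ on the strand of the gene in hg38. For coding exons 20 bases before and 10 bases after the exon are given. The exons lie at chr6:85538838-85538864 (minus strand, SNX14), chr1:46000959-46000979 (plus, MAST2), chr6:167913403-167913423 (plus, AFDN), chr10:78040204-78040225 (plus, RPS24), chr12:39330242-39330262 (minus, KIF21A), chr11:12878889-12878900 (plus, TEAD1), chr9:128239985-128239996 (plus, DNM1) and chr10:71823888-71823896 (minus, PSAP).
SNX14: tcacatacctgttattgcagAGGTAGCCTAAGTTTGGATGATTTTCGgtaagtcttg
MAST2: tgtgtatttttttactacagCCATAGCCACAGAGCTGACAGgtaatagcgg
AFDN: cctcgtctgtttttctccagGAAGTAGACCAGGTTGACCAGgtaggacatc
RPS24: tcagTGAGCTGGAGATTGGATCACAGgtat
KIF21A: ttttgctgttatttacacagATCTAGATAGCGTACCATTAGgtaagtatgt
TEAD1: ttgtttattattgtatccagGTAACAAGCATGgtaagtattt
DNM1: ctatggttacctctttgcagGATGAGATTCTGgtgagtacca
PSAP: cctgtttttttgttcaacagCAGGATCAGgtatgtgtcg

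SNX14, which encodes a sorting nexin of the endosomal and lipid droplet system, included its 27 nt exon at 48.3% in the lowest, 57.0% in the median and 70.1% in the highest MYCN- library. The MYCN+ libraries ran from 22.9% through a median of 36.0% to 46.2%, so the groups did not overlap. The difference was -22.9, -23.7 and -23.3 points in the siControl, siSNRPD3 1 and siSNRPD3 2 arms.

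The 21 nt exon of AFDN, which encodes the adherens junction protein afadin, was included at 44.6 to 61.5% (median 52.4%) in MYCN- and at 20.4 to 40.5% (median 30.7%) in MYCN+ libraries. In MAST2, a microtubule-associated kinase gene, the 21 nt exon was included at 38.8 to 55.2% (median 49.2%) in MYCN- and 18.3 to 35.4% (median 25.3%) in MYCN+ libraries. The groups overlapped for neither exon.

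RPS24 encodes a protein of the small ribosomal subunit and is known for tissue-dependent use of very short exons near its end. Its 22 nt exon was included at 38.2 to 48.7% (median 44.1%) in MYCN- and at 18.8 to 27.8% (median 24.1%) in MYCN+ libraries, again with no overlap. The intron that skips it had an adjusted p of 2.67e-05 in the limma test, and its PSI was higher by 21.7, 22.2 and 23.4 points in the 3 arms.

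The shortest exon of the set was the 9 nt exon of PSAP, the precursor of the saposins that assist lysosomal lipid breakdown. Its inclusion was 21.5% ± 1.51 (SD, n = 9) in MYCN- and 10.3% ± 1.76 (SD, n = 9) in MYCN+ cells. The 12 nt exons of TEAD1, a transcription factor of the Hippo pathway, and DNM1, the neuronal dynamin of vesicle scission, fell by 14.7 and 13.6 points. For these 3 genes the MYCN- libraries of PSAP (19.4 to 24.3%) were clear of the MYCN+ libraries (7.12 to 12.5%), while the ranges of TEAD1 (38.1 to 55.4% against 26.2 to 43.8%) and DNM1 (40.5 to 55.0% against 27.4 to 40.9%) overlapped.

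In KIF21A, a kinesin gene, the 21 nt exon fell by 18.8 points, and in KIF23, the kinesin of the cytokinetic midbody, a 42 nt exon fell from 43.5% ± 4.42 to 24.7% ± 5.4 (SD, n = 9 each). MYL6, the non-muscle myosin light chain, included its 45 nt exon at 35.4 to 48.2% (median 43.5%) in MYCN- libraries and 26.3 to 34.3% (median 29.1%) in MYCN+ libraries. The 36 nt exon of FAT1, a giant protocadherin, fell from 29.1% ± 2.82 to 12.7% ± 3.19, and the 60 nt exon of TERF1, which encodes the telomere repeat protein TRF1, fell from 43.1% ± 3.68 to 22.9% ± 2.32 (SD, n = 9 each).

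Among the exons more included with MYCN, the 5 largest differences were in SSBP4, RAI14, PPHLN1, TANC2 and OPA1. SSBP4, a gene for a single-stranded DNA binding protein, included a 66 nt exon at 24.0 to 39.5% (median 27.9%) in MYCN- and at 31.8 to 56.4% (median 43.4%) in MYCN+ libraries, with overlap. RAI14, an actin-associated protein gene, gained 15.3 points of an 87 nt exon. The mitochondrial fusion gene OPA1 gained 11.3 points of a 111 nt exon, from 23.4 to 35.7% (median 31%) in MYCN- to 37.2 to 45.5% (median 43.2%) in MYCN+ libraries, which did not overlap.

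Short sequence motifs known to be bound by splicing regulators were counted in the 100 bases on either side of the exons, on the RNA strand only. TGCATG, the motif of the RBFOX proteins, was found downstream of 11 of 72 exons less included with MYCN (15.3%) and of 3.89% of all 11300 exons, and it was as frequent downstream of the exons more included (3 of 17, 17.6%). ACTAAC, the motif of QKI, was found downstream of 6 of 72 (8.33%), of 0 of 17 and of 1.21% of all. For exons of up to 30 nt, TGCATG lay downstream of 2 of 15 less included (13.3%) and of 7.49% of the 307 tested. ACTAAC lay downstream of 1 of these 15 (6.67%) and of 2.93% of the 307. TCTCT, a motif of PTBP1, was found upstream of 23 of 72 (31.9%), of 6 of 17 (35.3%) and of 24.5% of all, and for exons of up to 30 nt upstream of 10 of 15 (66.7%) and of 38.8% of the 307 tested. The last base of TCTCT can be the first of TGCATG, and no other pair of these motifs can overlap. They describe the letters in these windows and say nothing of binding.

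The tilt to skipping was also visible without choosing exons. Averaged over 16634 sets of annotated introns in which one intron skips a pair of others, the skipping share was 43.2% ± 1.92 in MYCN+ and 41.9% ± 0.955 in MYCN- libraries (SD, n = 9 each), a difference of 1.28 points (two-sided exact permutation test within arms, p = 0.0035, adjusted over 5 library measures 0.00875). It was 0.61, 1.93 and 1.28 points in the siControl, siSNRPD3 1 and siSNRPD3 2 arms. The highest values were those of replicate 3 of each MYCN+ SNRPD3- group, and the difference was 0.898 points without the siSNRPD3 1 one of them (exact permutation p = 0.00625) and 1.02 points without the siSNRPD3 2 one (p = 0.00775). Each of these libraries was left out alone, so the other still raised the difference, and leaving out both was not tested. The PSI share of introns absent from the annotation was 12.8% ± 0.149 with and 12.6% ± 0.114 without MYCN (difference 0.267 points, exact permutation p = 0.002, adjusted 0.00875). Where one donor had a pair of annotated acceptors within 100 nt of each other, the nearer acceptor was used slightly more with MYCN (57.7% ± 0.177 against 57.3% ± 0.341, n = 9 each, adjusted exact permutation p = 0.0308), but this difference did not pass the test without the siControl, siSNRPD3 1 or siSNRPD3 2 arm (exact permutation p = 0.09, 0.08 and 0.05). The matching share for donors differed by 0.173 points (exact permutation p = 0.255) and the evenness of use within clusters by 0.146 points (p = 0.607), neither of which passed the test.

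**Figure D2:**
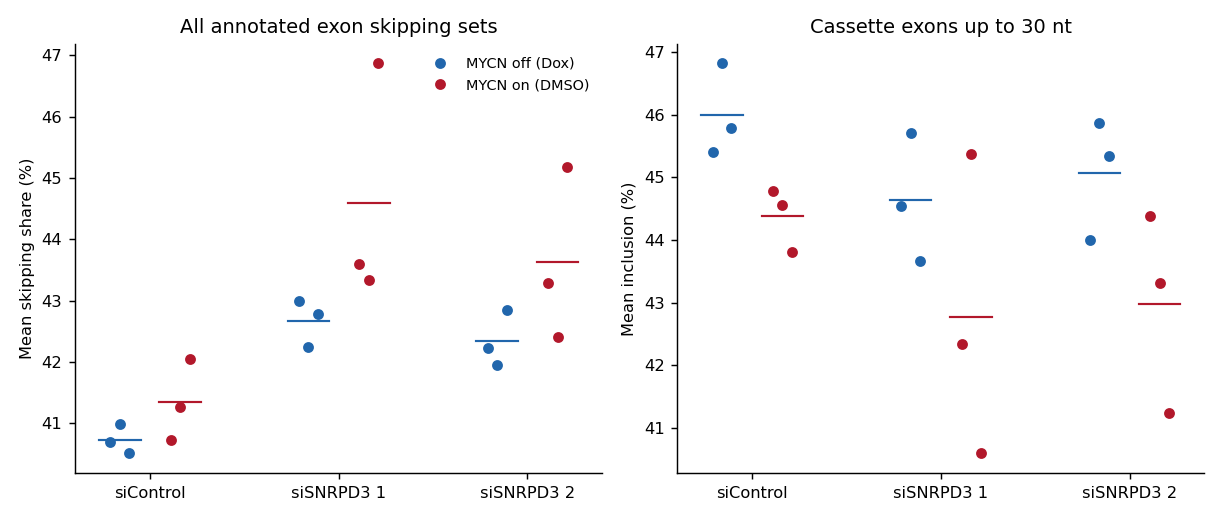
Mean skipping share over 16634 intron sets (left, %) and mean inclusion of the 307 tested cassette exons of up to 30 nt (right, %), each point a library, by siRNA arm, with group means as lines and axes that do not start at 0. In the left panel the MYCN+ mean lies above the MYCN- mean in each arm, and the highest library is at 46.9%.

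The direction held from arm to arm. Of the 2206 called introns, 2203 had the same sign in all 3 arms, against 35.2% of all tested introns. In 1122 of them the MYCN+ and MYCN- libraries did not overlap within any arm, in the fitted direction (0.874% of all tested introns did so), and in 501 all 9 MYCN+ libraries lay apart from all 9 MYCN- libraries (0.353%). Those counts reuse the libraries that made the calls, so each arm was also left out in turn. Introns called in the other arms alone kept their sign in the left-out arm in 90.2% of 326 cases for siControl, 92.2% of 412 for siSNRPD3 1 and 92.2% of 320 for siSNRPD3 2, where all tested introns kept theirs in 57.7, 58.1 and 58.7%. They had no overlap in that direction in 67.8, 61.9 and 66.9% of cases against 7.99, 8.23 and 9.37% of all tested introns, and their median difference in the left-out arm was 4.41, 4.28 and 5.13 points. Libraries of one MYCN state and replicate number were weakly alike across arms, so a left-out arm may not be fully independent of the others.

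Within single arms fewer introns passed, 83 in siControl (0.0543% of those tested), 75 in siSNRPD3 1 (0.0491%) and 60 in siSNRPD3 2 (0.0393%) when the spread was estimated from all 18 libraries. When each arm was fitted on its own 6 libraries the counts were 581, 611 and 661, so the number called in an arm rested on how the spread was estimated. A test of whether the MYCN effect differed between siRNA arms called 36 introns in 26 genes (0.0236%), and 5 of these were among the 2206. Among the 2206 introns 3.45% had an unadjusted interaction p under 0.05 against 3.97% of all tested introns. The fit that called the 2206 held no interaction, so a difference between arms added to the spread and made a call less likely. The share among them was therefore partly set by the selection. The arms were thus not shown to differ for nearly all introns of the MYCN response, which does not show that they were equal.

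The largest single differences lay at alternative first exons and alternative acceptors as well as at cassette exons. Introns were named by size of difference, up to 15 in each direction and one per gene, among those with at least 15 different values whose MYCN+ and MYCN- libraries did not overlap in any arm. The limit on different values left out 13 called introns, among them the largest difference of all, 80.9 points. The windows below show the splice sites of 4 of them, with the 6 exon bases and 20 intron bases of each site in hg38, and capitals marking the first and last pair of intron bases. The introns run between the exon bases chr17:50095553-50097423 (PDK2, plus strand), chr6:148343223-148390134 (SASH1, plus), chr7:18975953-18996023 (HDAC9, plus) and chr11:60924733-60927204 (TMEM132A, plus).
PDK2 donor: acttcgGTacggagtgggcgggaggc
PDK2 acceptor: acccctctttctcctgccAGgatcca
SASH1 donor: atcctgGTaagttacctggggagggg
SASH1 acceptor: ttgtttgtccaccccttcAGgacggt
HDAC9 donor: cagcagGTatgaatccaacgtgcggg
HDAC9 acceptor: ttgcctgtttatttttacAGaactgc
TMEM132A donor: tgagagGTcagcgggaggggagggcc
TMEM132A acceptor: tccctcttatgcctcttcAGtggact

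PDK2 rose most of the introns given here. It encodes a pyruvate dehydrogenase kinase, which restrains the entry of pyruvate into the mitochondrial citric acid cycle. Its annotated first intron was used at 55.6 to 74.3% (median 62.1%) in MYCN- and at 89.9 to 98.1% (median 95.2%) in MYCN+ libraries, a difference of 36.1, 27.7 and 30.4 points in the 3 arms (log2 odds 3.22 ± 0.26, SE; limma adjusted p = 2.01e-05). An unannotated PDK2 intron in the same gene fell in turn from 19.9 to 4.19%, and 3 more unannotated ones fell from at most 3.63%.

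SASH1, a scaffold protein gene, used its first intron at 63.2 to 90.8% (median 81.6%) with MYCN and 37.5 to 62.0% (median 44.1%) without. DUSP14, a phosphatase gene of MAP kinase signalling, used its first intron at 75.8 to 89.0% (median 83.4%) with MYCN and 49.1 to 69.3% (median 56.8%) without. FARS2, the mitochondrial phenylalanyl-tRNA synthetase gene, used a skipping intron at 71.1 to 90.7% (median 80.1%) against 49.3 to 61.2% (median 57.4%). None of these 3 overlapped between the groups.

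The other introns that rose in the list were those of ENSG00000223969, STAT4, MPP7, TRIOBP and ZNF160, by 22.0 to 30.3 points, together with the skipping introns of FAT1, TERF1, RPS24, AFDN and SNX14 described above.

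Among introns named by this rule that were used less with MYCN, the largest difference was in PDE11A, a cyclic nucleotide phosphodiesterase gene. Its intron 10 was at 39.9 to 98.9% (median 64.1%) in MYCN- and at 0.375 to 28.7% (median 15.3%) in MYCN+ libraries. The spread within each group was wide, and the adjusted p was 0.0188 (limma). HDAC9, a class IIa histone deacetylase gene, had its last intron at 50.1 to 84.3% (median 70.1%) in MYCN- and 18.2 to 57.6% (median 26.7%) in MYCN+ libraries, which overlapped between arms but not within any. Some HDAC9 values were exact repeats, the MYCN+ median included. Among the other introns named by size, those of ENSG00000223969 and BDNF-AS also held exact repeats.

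TMEM132A, a transmembrane protein gene, used a first intron that skips an exon at 47.1 to 78.7% (median 72.6%) without and 30.3 to 46.7% (median 35.4%) with MYCN. ABLIM1, which encodes an actin-binding LIM protein, had the most even fall, with -28.4, -27.8 and -27.9 points in the 3 arms and ranges of 57.0 to 72.1% against 31.1 to 41.7% (limma adjusted p = 4.06e-06). UBA1, the main ubiquitin-activating enzyme gene, used its first intron at 48.4 to 56.9% (median 50.8%) without MYCN and 23.3 to 37.7% (median 28.4%) with it.

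EPB41, which encodes the membrane skeleton protein 4.1, used a first intron at 57.0 to 73.9% (median 68.5%) without MYCN and 29.5 to 52.6% (median 40.1%) with it. The remaining introns that fell were those of KIF13B, BDNF-AS, SPATA13, LINC02901, ADGRL2, MOK, MBD5, CEP170 and LIMCH1, by 21.6 to 30.2 points. CEP170 stood at the threshold (adjusted p = 0.0498, limma). It stayed called under 7 alternatives and was not called under 28, among them those without either of the libraries that lay on the other side. With the covariate for repeated values, 9 of the 14 introns given here that rose (PDK2, SASH1, FARS2, DUSP14, FAT1, TERF1, RPS24, AFDN and SNX14) and 4 of the 15 that fell (ABLIM1, MOK, UBA1 and LIMCH1) were called.

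The called introns differed in kind from the introns tested, as a description with no test. Introns that skip an exon were 12.9% of tested introns, 38.7% of those higher with MYCN and 17.9% of those lower. First introns of a transcript, among them those that follow alternative promoters, were 22.9% of tested introns, 26.7% of the higher and 33.8% of the lower ones. Introns found only in transcripts subject to nonsense-mediated decay were 3.06, 5.79 and 2.70%, and introns in long non-coding RNA genes 9.91, 3.78 and 7.80%. Splice sites were alike: the donor GTAAGT began 13.4% of tested annotated introns, 15.7% of those higher and 13.8% of those lower. The E-box CACGTG, which reads the same on both strands, lay within 250 bases before to 50 bases after the start site for 7.22% of tested first introns, 9.64% of 332 higher and 5.54% of 325 lower ones.

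Genes were then grouped by function, with the share of tested introns in genes that were called, 1.51%, as the background for every list. Genes of adhesion and cytoskeleton had 84 called introns of 1191 (7.05%), 45 higher and 39 lower, in 28 of 73 genes. This list and all the others had been drawn up with earlier results of these data known. The share of no list, here or below, is therefore independent evidence. LIMCH1, an actomyosin regulator, switched between acceptors, with one intron at 50.3 to 61% (median 51.7%) without and 24.2 to 38.2% (median 31.8%) with MYCN, and another rising from 39.6 to 60.3%. ANK3, the ankyrin of axon initial segments and epithelial membranes, raised one first intron from 12.3 to 22.1% and lowered another from 78.1 to 63.8%. TPM2, a tropomyosin gene, used a skipping intron at 9.15 to 14.5% without and 17.6 to 21.7% with MYCN. CALD1, caldesmon, went the other way, with less skipping (87.9% without, 82.4% with), as did MAP4 (94.5% and 90.4%). A different MAP4 intron, the one named by smallest p, rose, at 1.86 to 4.24% without and 4.54 to 7.61% with MYCN. EPB41L2, CAST, MACF1, APP and APLP2 changed by 1.16 to 5.8 points in the introns named for them. With the covariate for repeated values 23 introns of this list were called, which kept the introns given here for LIMCH1, EPB41L2 and CAST. The rising one of ANK3 and the falling one of MAP4 were also kept, but not the others. Without the MYCN- or the MYCN+ library that lay on the other side, 75 and 73 were called.

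Introns in the genes of splicing regulators were called in both directions. Among hnRNPs and other splicing regulators 24 of 591 introns were called (4.06%), 11 higher and 13 lower, among SR proteins and SR-like regulators 10 of 343 (2.92%), 5 in each direction, and among spliceosome components 16 of 559 (2.86%), 8 in each direction. By share of genes with a called intron the values were 12 of 58 (20.7%), 7 of 32 (21.9%) and 10 of 76 (13.2%), against 10.0% of all. Of all called introns in genes that skip an exon without flanking another, 480 were higher and 167 lower with MYCN. The 14 of these lists were all higher, such as those of RBM39 (70.4% without, 78.1% with), RBM25 (88.7 and 92.7%), TIA1 (9.42 and 18.5%), ZNF207 (67.6 and 75.8%) and TRA2A (81.9 and 86.1%). A different ZNF207 intron, the one named by smallest p, fell, at 99.2 to 99.7% without and 97.3 to 99.0% with MYCN. HNRNPA2B1, which encodes an RNA-binding protein, used an intron at 86.8 to 88.4% without and 90.4 to 91.5% with MYCN. LSM5, of the protein ring on U6 RNA, and PRPF38A, a splicing factor of the activating spliceosome, used their main acceptors less, at 93.8% against 96.4% and 92.1% against 96.2%. With the covariate 3, 0 and 2 introns of the hnRNP, SR and spliceosome lists were called. Among them were those given here for RBM25 and LSM5 and the falling one of ZNF207, but not the others. Without the MYCN+ library that lay on the MYCN- side, 5 of the SR list were called, 1 higher and 4 lower.

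Central carbon metabolism had 23 called introns of 503 (4.57%), 10 higher and 13 lower in 11 genes. After PDK2, the clearest were those of SHMT2, the mitochondrial serine hydroxymethyltransferase of one-carbon metabolism, whose minor first intron was at 1.90 to 3.95% (median 2.79%) without and 0.303 to 1.53% (median 1.11%) with MYCN, and OGDH, a subunit of the oxoglutarate dehydrogenase complex, which shifted 5.65 points between its acceptors. MTHFD1L used its main first intron at 93.0% with and 82.9% without MYCN. With the covariate for repeated values 5 introns of this list were called, in PDK2, SHMT2 and SLC16A1, and those of OGDH and MTHFD1L were not. None of the tested introns of PKM, the pyruvate kinase gene with mutually exclusive exons, was called. The PKM intron with the smallest p was at 97.6% ± 0.374 with and 97.8% ± 0.514 without MYCN (SD, n = 9 each; limma adjusted p = 0.774).

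Genes of ribosome biogenesis and translation had 16 called introns of 676 (2.37%), 9 higher and 7 lower. EIF5A, the hypusine-containing translation factor, had the smallest p of all listed genes, and its main first intron was used at 92.5 to 94.3% (median 93.0%) in MYCN- and 96.4 to 97.2% (median 96.8%) in MYCN+ libraries (limma adjusted p = 6.44e-06). NOP56 and NOP58, core proteins of box C/D small nucleolar ribonucleoproteins, raised minor introns by 5.90 and 2.79 points. Host genes of small nucleolar RNAs had 6 of 214 (2.80%), 5 of them higher, including SNHG4 (4.21 to 7.18%) and GAS5 (2.03 to 3.06%). Mitochondrial translation and dynamics had 7 of 272 (2.57%), 4 higher and 3 lower, in OPA1, MFF, FIS1 and MTIF2. By share of genes with a called intron, the mitochondrial list (4 of 42, 9.52%) was below the 10.0% of all tested genes. The ribosome list (11 of 72, 15.3%) and the snoRNA hosts (5 of 21, 23.8%) were above it. With the covariate 2 introns of the ribosome list were called, both in EIF5A, 1 of the snoRNA hosts, in SNHG4, and 2 of the mitochondrial list, both in OPA1.

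By share of introns called, lists of cell fate were close to or below the background. By share of genes with a called intron, apoptosis (8 of 46, 17.4%) and the neuronal list (4 of 27, 14.8%) were above the 10.0% of all tested genes and cell cycle (7 of 91, 7.69%) below. Apoptosis had 8 called introns of 439 (1.82%), 7 of them higher, among them minor introns of BAX (3.00 to 5.57%), HTRA2 (3.78 to 7.29%) and BCL2L1 (3.53 to 6.56%), while CFLAR fell from 9.87 to 6.34%. Without the MYCN+ library that lay on the MYCN- side, 5 introns of the apoptosis list were called, and with the covariate for repeated values 0. Cell cycle had 12 of 1017 (1.18%), 8 higher and 4 lower, of which 3 were in KIF23 and 4 in CHEK1, the checkpoint kinase gene. One CHEK1 first intron rose from 57.0 to 73.1% and another fell from 25.7 to 17%. The neuronal and neural crest list had 6 of 432 (1.39%), the MYC and MAX network 3 of 449 (0.668%), in USP7 and MXI1, and nonsense-mediated decay 1 of 296 (0.338%), in UPF3A. With the covariate 4 introns of the cell cycle list were called, 3 of KIF23 and the falling one of CHEK1, and 2, 0 and 0 of these last 3 lists.

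BIRC5 and CDK10 were examined whatever their values. BIRC5, which encodes survivin, had no called intron, and the one with the smallest p was at 2.10 to 3.49% (median 2.78%) with and 2.60 to 4.72% (median 3.44%) without MYCN (limma adjusted p = 0.22). CDK10, a cyclin-dependent kinase gene, had one unannotated skipping intron that was higher with MYCN, at 1.67 to 3.61% (median 2.07%) against 0.510 to 1.86% (median 0.931%; limma adjusted p = 0.0143), and it was not called with the covariate for repeated values.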

How the data were processed

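RNA from 18 SHEP.tet21n cultures, 3 per group and described by the study as independent biological replicates, had been sequenced as stranded paired-end mRNA libraries. The authors aligned reads to hg38 with STAR 2.5.0a and SAMtools 1.3.1, and leafcutter grouped introns into clusters; the deposited values are PSI as a fraction, one column per sample, with no read counts. Filters and the making of exactly repeated values are not given in the sources used here. A second deposited table holds the authors' adjusted p-values and PSI differences for their pairwise comparisons and was not used.

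Introns were placed in GENCODE v44 genes and those with a mean PSI of 0.01 to 0.99 kept. PSI was taken to log2((PSI + 0.01)/(1 - PSI + 0.01)) and fitted with limma 3.58.1 (R 4.3.3) on siRNA and MYCN, with p-values adjusted over all introns tested. Differences are mean PSI differences over the 3 arms. Library measures were tested by exact permutation of MYCN labels within arms (8000 arrangements). On simulated shifts of 1 and 2 log2 odds in 200 introns, the fit called 30.5 and 60.5% of them. An intron was named, one per gene, if called, with at least 15 different values, one sign and no overlap within any arm, for the 15 largest differences each way; further introns came from the gene lists (30, by p), from PDK2, PKM, BIRC5 and CDK10, and from introns with fewer than 15 different values (3). Cassette exons, their length classes, the motifs and the other genes named from the lists were chosen after their values were seen. Some items that these rules pick are not reported here. The members and gene lists were chosen with earlier results of these data known. The alternatives were other offsets, filters, scales, weights, blocks and sets of libraries.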

Additional observations from a re-analysis of the deposited data

Results flagged for a closer look

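Of the 130 groups of 9 libraries examined, 5 held a library that stood apart from the other 8 by a gap test at the 95% level, which chance gives in about 1 of 20 groups. In ENSG00000223969 the highest MYCN+ library was at 82.7%, in BDNF-AS the highest MYCN+ library was at 29.7% while the median was 0.66%, in TMEM132A the lowest MYCN- library was at 47.1%, and in OGDH the lowest MYCN+ library was at 80.6%. The BDNF-AS value of 29.7% was an exact repeat of that of a MYCN-, siControl library. In CFAP251, where 18 libraries shared 9 different values, the highest MYCN+ library was at 48.4%. CFAP251 showed the largest difference of all called introns, -80.9 points, with MYCN- libraries at 48.4 to 98.4% (median 98.2%) and MYCN+ libraries at 1.65 to 48.4% (median 1.93%), and ENSG00000287460 (11 different values) differed by -55.1 points. Only 13 of the 2206 called introns had fewer than 15 different values. No named intron differed between siRNA arms by the interaction test.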

How the results depend on the processing

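Depth is unknown, PSI is relative within a cluster, and groups of 3 limit each arm. Of the 58 named introns that were called, none reversed under any alternative, and all but CEP170 and ENSG00000287460 stayed called without any 1 library. Without a single library, 1603 to 2093 introns in 1060 to 1369 genes were called. Introns and genes called were 1360 and 887 with mean PSI 0.05 to 0.95, 841 and 573 at an adjusted p under 0.01, 914 and 626 with a difference of at least 5 points, 326 and 240 without siControl, 412 and 311 without siSNRPD3 1, 320 and 234 without siSNRPD3 2, and 316 and 227 with the covariate for repeated values, which also left 26 of the 58 named introns called. Exons called less included were 46 to 69 without a single library (46 without replicate 2 of the MYCN-, siSNRPD3 1 group), 29 at the stricter p, 37 with at least 5 points, 10, 11 and 9 without the siControl, siSNRPD3 1 and siSNRPD3 2 arms, and 9 with the covariate. Fitted on the 6 libraries of an arm alone, 581, 611 and 661 introns were called in siControl, siSNRPD3 1 and siSNRPD3 2. The interaction called 59 introns with an offset of 0.001, 1 with mean PSI 0.05 to 0.95, 20 among introns with 18 different values, and 41 to 63 without a single library. The acceptor share difference missed the test without siControl (0.332 points), siSNRPD3 1 (0.316) and siSNRPD3 2 (0.343). The evenness difference ran from -0.0197 to 0.296 without a single library, negative without replicate 3 of the MYCN+, siSNRPD3 2 group. Replicate numbers did not pair MYCN+ with MYCN- libraries within an arm (mean correlation of deviations -0.016 over the 9 pairs of one arm and number). Across arms, libraries of one MYCN state and number were weakly alike. Their mean correlation was 0.0478 (0.00122 to 0.117) over 18 pairs, against -0.0239 for different numbers. The arms may therefore not be fully independent, which was not tested. A replicate block called 2639 introns. A replicate block within siRNA called 1139 introns in 801 genes and 28 exons less included. The cause of these changes was not tested.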
